A study of Mus musculus with 2 samples.

Results

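Genes of the Hippo pathway and classic targets of its effectors were followed in the liver of young BALB/c mice, taken on day 11 of life. The members were 10 listed genes: Yap1, Wwtr1, Tead1, Lats2, Ccn1 (also known as Cyr61), Ccn2 (also known as Ctgf), Ankrd1, Amotl2, Ajuba and Axl. They were found by mapping the RefSeq accession of each row to a gene symbol, and 9 of them were matched among 26438 genes in all. Tead1 was not matched and was not analysed here. One library came from liver labelled SRSF2-/-, described by the submitters as a liver specific deletion, and 1 library came from wild-type (WT) liver of the same strain and age. SRSF2 is a serine/arginine-rich protein that binds exons and helps the spliceosome to choose them. The sources used here do not give the driver of the deletion, the part of the gene removed or the number of animals behind each library. With 1 library per genotype no difference was tested against the spread between animals, and every value describes these 2 libraries.

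The Hippo pathway is a kinase cascade that limits organ size, and liver is among the tissues in which this was worked out. The MST kinases with their scaffold SAV1 activate the LATS kinases, which phosphorylate the transcriptional co-activators YAP (gene Yap1) and TAZ (gene Wwtr1) and hold them out of the nucleus. In the nucleus, YAP and TAZ bind DNA through TEAD factors and raise transcription of targets such as Ccn1, Ccn2 and Ankrd1. Several targets, among them Lats2 and Amotl2, encode proteins that restrain YAP.

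TEAD factors bind the hexamer GGAATG, which reads CATTCC on the other strand, and promoters of members are shown for that reason. A window of 250 bases before the annotated start was taken from RefSeq (build GRCm38.p6), which matched 8 of the 10 members (not Tead1 and Ccn2). The lines below give it 5′ to 3′ along the gene for the 5 of these that were at least 2-fold higher in the SRSF2-/- library, with each hexamer in capitals. The windows lie on the minus strand at chr3:145649986-145650235 for Ccn1, chr19:36119845-36120094 for Ankrd1, chr7:25788734-25788983 for Axl and chr14:54577662-54577911 for Ajuba, and on the plus strand at chr9:102717554-102717803 for Amotl2.
Ccn1: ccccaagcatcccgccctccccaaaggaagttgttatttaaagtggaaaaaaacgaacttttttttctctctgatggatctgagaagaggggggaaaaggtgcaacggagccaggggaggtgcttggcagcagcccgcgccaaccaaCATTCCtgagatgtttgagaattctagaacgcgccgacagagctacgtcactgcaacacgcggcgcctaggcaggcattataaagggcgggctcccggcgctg
Ankrd1: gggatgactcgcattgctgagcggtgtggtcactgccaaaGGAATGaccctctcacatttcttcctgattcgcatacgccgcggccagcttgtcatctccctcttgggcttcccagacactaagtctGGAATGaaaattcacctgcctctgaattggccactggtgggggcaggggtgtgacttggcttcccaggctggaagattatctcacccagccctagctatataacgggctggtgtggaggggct
Axl: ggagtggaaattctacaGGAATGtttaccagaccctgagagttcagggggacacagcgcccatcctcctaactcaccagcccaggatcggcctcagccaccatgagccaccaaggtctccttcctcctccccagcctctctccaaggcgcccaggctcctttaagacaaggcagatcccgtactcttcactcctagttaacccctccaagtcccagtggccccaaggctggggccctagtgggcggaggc
Ajuba: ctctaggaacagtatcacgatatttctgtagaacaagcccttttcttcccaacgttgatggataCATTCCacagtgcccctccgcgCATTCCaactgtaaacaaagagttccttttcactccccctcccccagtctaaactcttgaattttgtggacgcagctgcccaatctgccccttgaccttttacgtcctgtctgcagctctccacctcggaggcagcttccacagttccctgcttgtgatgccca
Amotl2: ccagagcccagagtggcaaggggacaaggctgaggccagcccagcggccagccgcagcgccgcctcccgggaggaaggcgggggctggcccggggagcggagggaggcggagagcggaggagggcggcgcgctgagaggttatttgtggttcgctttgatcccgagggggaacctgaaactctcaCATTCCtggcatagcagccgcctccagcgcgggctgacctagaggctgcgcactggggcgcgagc
The hexamer occurred in 1 copy in Ccn1, ending 98 bases before the start, and in 2 copies in Ankrd1, ending 205 and 118 bases before it. Ajuba also held 2 copies, ending 181 and 159 bases before the start, whereas Axl and Amotl2 held 1 copy each, at 228 and 60 bases. Yap1 and both windows of Wwtr1 held 1 copy each, and the windows of Lats2 held none. On either strand the hexamer was present in 8 of the 10 windows of the members, for 7 of the 8 matched genes. The windows of Wwtr1 overlap and hold the same copy. Of all 32851 windows of this length, 12.6% held the hexamer and 1.02% held 2 or more copies. The AP-1 motif TGANTCA, which reads the same on both strands, was present in 0 of the 10 windows of the members and in 6.75% of all windows. The genes were listed as YAP and TEAD targets to begin with, so the matches describe the sequences and locate no binding site.

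Transcript reads summed to 22111605 in the SRSF2-/- library and to 22407743 in the WT library. Levels are the authors' FPKM, fragments scaled for transcript length and library size. Srsf2 itself stood at 11.8 FPKM in the SRSF2-/- library and 27.9 FPKM in the WT library (832 and 1998 reads). Xist, which coats the inactive X chromosome, had 6 reads in the SRSF2-/- library and 13004 in the WT library, and the Y-linked Ddx3y had 859 and 0 reads, so sex and genotype cannot be told apart. The difference was measured as log2((SRSF2-/- FPKM + 1) / (WT FPKM + 1)), called the log2 ratio here, for the 12476 genes with at least 1 FPKM in either library. Its median over these genes was 0.55, and 84.5% of them were higher in the SRSF2-/- library. The 20 most abundant genes took 21.5% of the reads in the SRSF2-/- library and 37.5% in the WT library. Each log2 ratio is therefore also given centred, that is, after subtraction of that median. A fold is the FPKM of the SRSF2-/- library over that of the WT library, and the brackets after it hold the exact 95% interval (Clopper-Pearson) that its reads allow, for counting error alone.

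All 9 matched members were higher in the SRSF2-/- library, as were 84.5% of all genes tested. The folds of the members ran from 1.46 for Yap1 to 73.0 for Ankrd1. At least 2-fold higher on the log2 ratio scale were 6 of the 9 members (66.7%), against 19.2% of all genes tested, and 0 members were at least 2-fold lower, against 2.95% of all genes. After centring, 5 of the 9 were at least 2-fold higher, against 5.67% of all genes, and 0 were lower, against 6.66%. The median log2 ratio was 1.65 for the members (1.10 centred). The 6 were Ccn1, Ccn2, Ankrd1, Amotl2, Ajuba and Axl. The members nearest to the threshold were Amotl2 inside it, at a log2 ratio of 1.13, and Wwtr1 outside it, at 0.88. All 9 passed the filter of 1 FPKM, 8 of them in both libraries. Ankrd1 passed through the SRSF2-/- library alone, so it could not have passed with a level like that of the WT library in both.

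**Figure D1:**
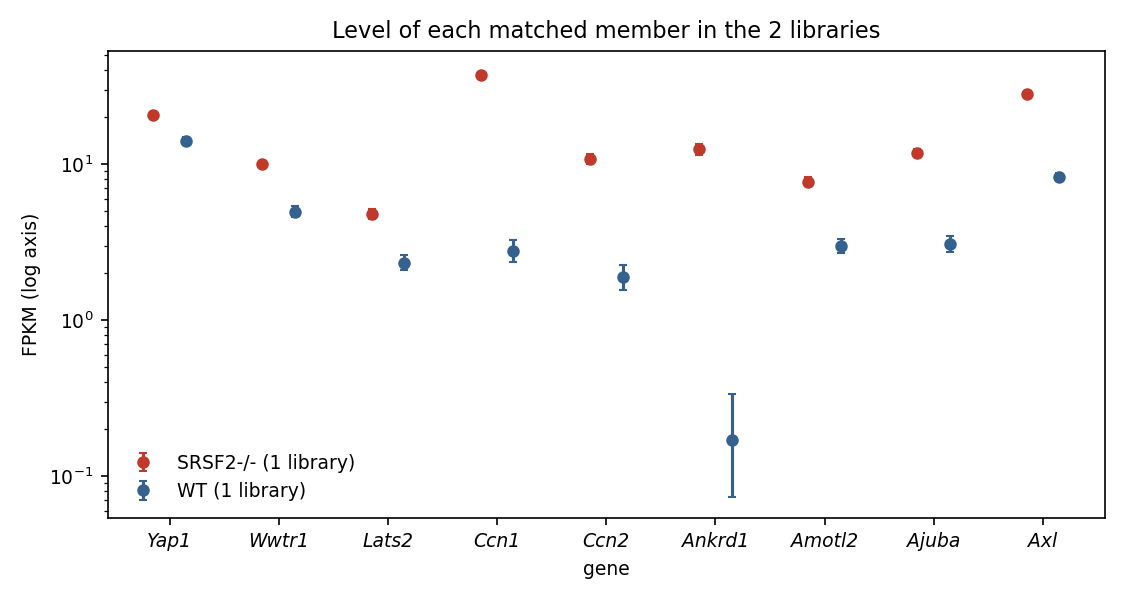
FPKM on a log axis (vertical) of the 9 matched members (horizontal) in the SRSF2-/- library (red) and the WT library (blue). Bars are exact 95% Poisson intervals of the reads and cover counting error only, and the gap is widest for Ankrd1 (12.5 and 0.171 FPKM).

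Among the co-activators and their kinase, Yap1 (NM_009534), the main effector of the pathway, had 20.7 FPKM in the SRSF2-/- library and 14.2 FPKM in the WT library (2273 and 1570 reads). It was 1.46-fold higher (1.37 to 1.56), with a log2 ratio of 0.52, close to the median of all genes (-0.03 centred). Its ratio therefore changed sign with the scaling. Wwtr1 (NM_133784), which encodes the YAP paralog TAZ, had 9.97 FPKM in the SRSF2-/- library and 4.95 FPKM in the WT library (1242 and 624 reads). The plain ratio was 2.01-fold (1.83 to 2.22), with a log2 ratio of 0.88 (0.33 centred) that lay above those of 74.7% of the tested genes. Lats2 (NM_153382), one of the kinases that phosphorylate YAP and TAZ and itself a YAP target, had 4.81 FPKM in the SRSF2-/- library and 2.33 FPKM in the WT library (654 and 321 reads). It was 2.06-fold higher (1.80 to 2.36), with a log2 ratio of 0.80 (0.25 centred). For Wwtr1 and Lats2 the plain ratio passes 2 while the log2 ratio, with its pseudocount of 1, stays below 1.

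The secreted matricellular proteins of the CCN family bind integrins and matrix, and Ccn1 and Ccn2 are the most widely used readouts of YAP activity. Ccn1 (NM_010516) had 37.3 FPKM in the SRSF2-/- library and 2.79 FPKM in the WT library, from 1985 and 150 reads. It was 13.4-fold higher (11.3 to 15.9), with a log2 ratio of 3.34 (2.79 centred) above those of 99.4% of tested genes, and it was the most abundant member in the SRSF2-/- library. Ccn2 (NM_010217), the connective tissue growth factor gene, had 10.8 FPKM in the SRSF2-/- library and 1.88 FPKM in the WT library, from 680 and 120 reads. It was 5.73-fold higher (4.72 to 7.02), with a log2 ratio of 2.03 (1.48 centred). The other CCN genes did not share this level. Ccn3, Ccn4, Ccn5 and Ccn6 all stayed below 1 FPKM in both libraries, and 0 of these 4 genes were tested. Their summed level was 1.24 FPKM in the SRSF2-/- library and 1.03 FPKM in the WT library. Ccn1 made up 75.6% of the summed FPKM of the family in the SRSF2-/- library and 48.9% in the WT library.

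Ankrd1 (NM_013468) encodes an ankyrin repeat protein of muscle that acts in the nucleus and the sarcomere, and it is a classic YAP target in other cells. It had 12.5 FPKM in the SRSF2-/- library and 0.171 FPKM in the WT library, from 577 and 8 reads. The plain ratio was 73.0-fold, with a wide interval (36.8 to 169.9) because of the 8 WT reads, and the log2 ratio was 3.52 (2.97 centred). Muscle transcripts differed in the same direction. The 10 skeletal muscle markers summed to 84.3 FPKM in the SRSF2-/- library and 0.261 FPKM in the WT library, with Acta1, Myh1, Myh4, Tnnc2 and Mb at 0 reads in the WT library. Of these markers 9 passed the filter, all 9 through the SRSF2-/- library alone, so their count past 2-fold is not given. The 10 heart muscle markers summed to 8.84 FPKM in the SRSF2-/- library and 3.04 FPKM in the WT library. Of the 4 that passed the filter, 3 did so through the SRSF2-/- library alone. The one that passed in both, Myl4, had 1.83 FPKM in the SRSF2-/- library and 1.89 FPKM in the WT library. From the same list, the atrial and ventricular genes Myh6, Nppa and Myl2 had 0, 1 and 1 reads in the SRSF2-/- library and 0 in the WT library. Actc1, an actin that young skeletal muscle also makes, had 99 reads and 0 reads in that order. Of the rest of the list, Tnnt2 had 85 reads in the SRSF2-/- library and 22 in the WT library, Myl3 34 and 1, and Ryr2 20 and 1. Myl7 had 3 and 5 reads in the same order, and Tnni3 had 3 and 4. The 2 listed relatives of Ankrd1, both expressed in muscle, were low in both libraries, and 1 was tested. Ankrd23 had 1.17 FPKM in the SRSF2-/- library and 0.386 FPKM in the WT library (81 and 27 reads), a plain ratio of 3.04-fold (1.94 to 4.88). It passed the filter through the SRSF2-/- library alone. With its pseudocount of 1, the log2 ratio of Ankrd23 was 0.65 (0.09 centred), below the 2-fold call. Ankrd2 was not tested and had 0.249 FPKM and 0.328 FPKM in the same order. The part of muscle RNA in the Ankrd1 value was not tested.

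Amotl2 (NM_019764) encodes an angiomotin-like junction protein that binds YAP and keeps it in the cytoplasm. It had 7.73 FPKM in the SRSF2-/- library and 2.98 FPKM in the WT library (909 and 355 reads) and was 2.59-fold higher (2.29 to 2.94), with a log2 ratio of 1.13. Centred, the log2 ratio of Amotl2 was 0.58, so its 2-fold call was lost. Ajuba (NM_010590) encodes a LIM-domain protein of cell junctions that binds and inhibits LATS kinases. It had 11.8 FPKM in the SRSF2-/- library and 3.07 FPKM in the WT library (1081 and 285 reads) and was 3.83-fold higher (3.37 to 4.39), with a log2 ratio of 1.65 (1.10 centred). The TAM group of receptor tyrosine kinases recognises dying cells through the bridging ligands GAS6 and protein S. Axl (NM_009465) encodes a receptor of this group and is itself a YAP target. Its level was 28.4 FPKM in the SRSF2-/- library and 8.31 FPKM in the WT library (3780 and 1121 reads), a 3.41-fold difference (3.19 to 3.65) with a log2 ratio of 1.66 (1.10 centred). Ajuba and Axl thus kept their 2-fold call after centring, with log2 ratios above those of 95.1% and 95.2% of tested genes.

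The order of levels differed between the libraries. In the SRSF2-/- library Ccn1 stood highest, then Axl and Yap1, followed by Ankrd1, Ajuba, Ccn2 and Wwtr1, whose neighbouring counting intervals overlapped, and then Amotl2 and Lats2. In the WT library the order began with Yap1, Axl and Wwtr1, then came Ajuba, Amotl2, Ccn1, Lats2 and Ccn2 with overlapping neighbours, and Ankrd1 stood lowest. Ccn1 relative to Yap1 in the same library, a ratio that no scaling of a whole library changes, was 1.80 in the SRSF2-/- library and 0.197 in the WT library, a 9.14-fold difference (7.64 to 11.0). This pair was chosen after the values had been seen.

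Ratios between related genes of 1 library were taken in the same way, for further pairs chosen likewise. Wwtr1 relative to Yap1 was 0.481 in the SRSF2-/- library and 0.350 in the WT library, or 1.38-fold higher (1.22 to 1.55). Lats2 relative to Lats1 was 0.580 and 0.508 in the same order, and the interval of the difference (0.974 to 1.34) held 1. Ajuba relative to its paralog Limd1, another LIM protein that inhibits LATS, was 1.499 in the SRSF2-/- library and 0.406 in the WT library, 3.69-fold higher (3.15 to 4.35), while Limd1 itself stood at 7.85 FPKM and 7.57 FPKM in that order. Amotl2 relative to Amot, the founding angiomotin, was 2.56 in the SRSF2-/- library and 1.29 in the WT library, 1.98-fold higher (1.66 to 2.35). Relative to Mertk, the TAM receptor of macrophages, Axl was at 2.98 in the SRSF2-/- library and 1.47 in the WT library, 2.03-fold higher (1.81 to 2.27). All these intervals cover counting error only.

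**Figure D2:**
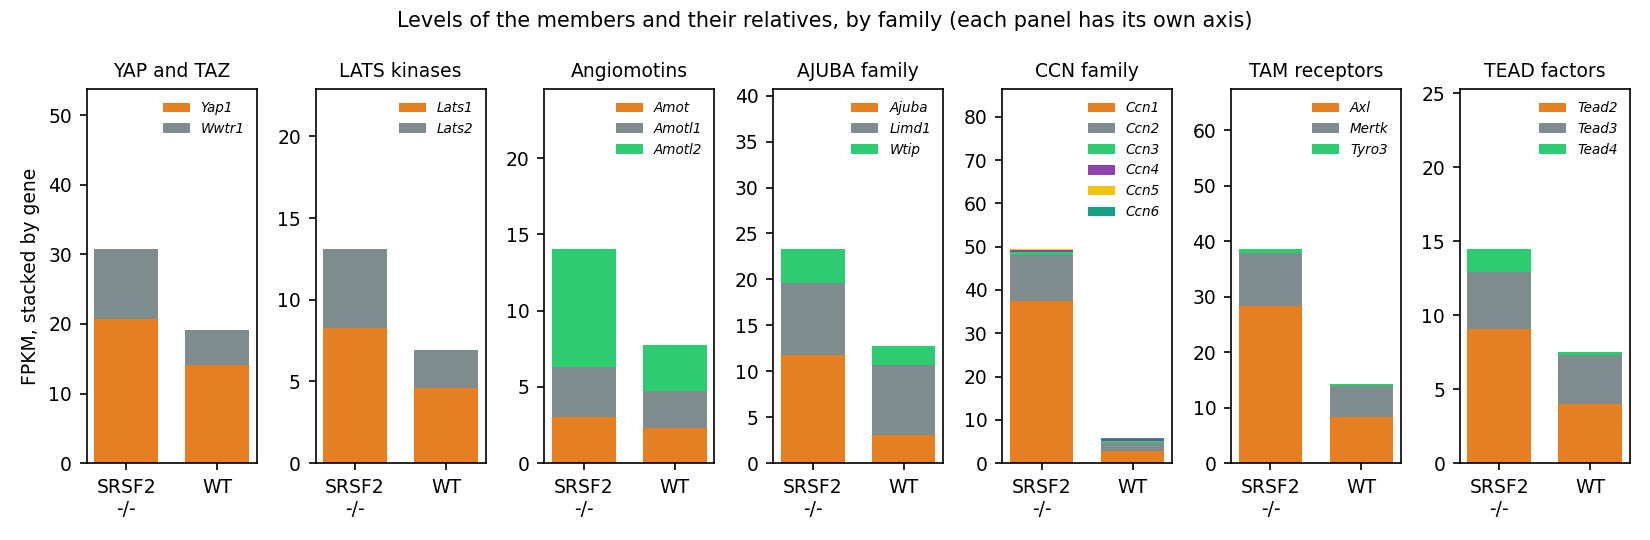
Stacked FPKM (vertical, each panel on its own axis from 0) of the genes of 7 families in the SRSF2-/- library (left bar) and the WT library (right bar), with no replicate and no error bar. The SRSF2-/- bar is taller in each panel; in the CCN panel it reaches 49.4 FPKM against 5.70 FPKM in WT and is mostly Ccn1.

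The rest of the pathway was read from lists that did not include the members. Of 23 Hippo kinases, scaffolds and upstream regulators, 22 passed the filter, and 3 of these were at least 2-fold higher and 0 lower, a share of 13.6% against the 19.2% of all genes. Their median log2 ratio was 0.69 (0.14 centred), and after centring 0 were at least 2-fold higher, against 5.67% of all genes. Map4k4, a kinase that can activate LATS, had 11.7 FPKM in the SRSF2-/- library and 3.43 FPKM in the WT library, a log2 ratio of 1.51 (0.96 centred). Csnk1e, a casein kinase that primes YAP for degradation, had 6.64 FPKM in the SRSF2-/- library and 2.15 FPKM in the WT library, and Frmd6, a junctional scaffold, had 3.95 FPKM and 1.12 FPKM in that order. The most abundant gene of this list was the casein kinase gene Csnk1d, at 24.5 FPKM in the SRSF2-/- library and 14.1 FPKM in the WT library.

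Of 7 TEAD and Vestigial-like genes other than Tead1, 4 were tested. Of these, 2 were at least 2-fold higher and 0 lower, against 19.2% and 2.95% of all genes. Their median log2 ratio was 0.60 (0.04 centred), and after centring 0 were higher, against 5.67%. Tead2, the most abundant of them, had 9.09 FPKM in the SRSF2-/- library and 4.03 FPKM in the WT library, a log2 ratio of 1.005 (0.45 centred). Tead4 was low in both libraries, at 1.501 FPKM in the SRSF2-/- library and 0.208 FPKM in the WT library (121 and 17 reads), passed the filter through the SRSF2-/- library alone, and was 7.20-fold higher (4.32 to 12.8). Tead3 had 3.86 FPKM in the SRSF2-/- library and 3.26 FPKM in the WT library. Vgll4, whose protein competes with YAP for TEAD, had 6.36 FPKM in the SRSF2-/- library and 5.99 FPKM in the WT library, named here after its values were seen. Vgll1 and Vgll2 had 0 reads in both libraries.

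A further list held genes of a YAP/TAZ target signature drawn from human cancers. Of 16 listed, 15 were matched and 13 tested, 3 of them through the SRSF2-/- library alone, and 4 were at least 2-fold higher (30.8%, against 19.2% of all genes) and 0 lower. Their median log2 ratio was 0.67 (0.11 centred), and after centring 1 was higher and 1 lower, against 5.67% and 6.66% of all genes. Gadd45a, a growth arrest and DNA damage gene that p53 also induces, had 11.3 FPKM in the SRSF2-/- library and 2.74 FPKM in the WT library, a log2 ratio of 1.71 (1.16 centred). Ptpn14, a phosphatase gene whose product binds YAP, had 2.82 FPKM in the SRSF2-/- library and 0.448 FPKM in the WT library, a log2 ratio of 1.40 (0.85 centred), and it passed the filter through the SRSF2-/- library alone. Nt5e, which encodes the ectonucleotidase CD73, was the most abundant of the list at 36.3 FPKM in the SRSF2-/- library and 15.7 FPKM in the WT library. The gene of this list that was lower after centring, Igfbp3, encodes a binding protein of insulin-like growth factors and was named after its values were seen. Igfbp3 had 13.3 FPKM in the SRSF2-/- library and 19.4 FPKM in the WT library, a log2 ratio of -0.51 (-1.06 centred).

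The TAM receptors and ligands other than Axl held 3 tested genes of 4. Of these, 0 were at least 2-fold higher or lower, against 19.2% and 2.95% of all genes. After centring 0 were higher and 1 was lower, against 5.67% and 6.66%. The receptor gene Mertk had 9.52 FPKM in the SRSF2-/- library and 5.65 FPKM in the WT library. Of the ligands, Gas6 had 23.4 FPKM in the SRSF2-/- library and 16.6 FPKM in the WT library. Pros1, which encodes protein S, an anticoagulant made by hepatocytes, was at 8.59 FPKM in the SRSF2-/- library and 14.2 FPKM in the WT library, a log2 ratio of -0.67 (-1.22 centred).

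Ccn1, Ccn2 and Ankrd1 are also known targets of SRF, the serum response factor, with its actin-sensing co-activators of the MRTF group. Of 11 further SRF and MRTF targets, all tested, 4 were at least 2-fold higher (36.4%, against 19.2% of all genes) and 0 lower, with a median log2 ratio of 0.94. After centring the median was 0.38, with 1 gene higher and 0 lower, against 5.67% and 6.66% of all genes. Of the 11, 2 had passed the filter through the SRSF2-/- library alone. Tpm1, a tropomyosin gene, had 88.0 FPKM in the SRSF2-/- library and 22.5 FPKM in the WT library, a log2 ratio of 1.92 (1.37 centred). Filip1l, named for a filamin-binding relative, had 9.80 FPKM in the SRSF2-/- library and 2.87 FPKM in the WT library. Acta2, the smooth muscle actin of activated stellate cells, had 16.4 FPKM in the SRSF2-/- library and 6.79 FPKM in the WT library. Tpm1 is also expressed in striated muscle, whose markers are given with Ankrd1.

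**Figure D3:**
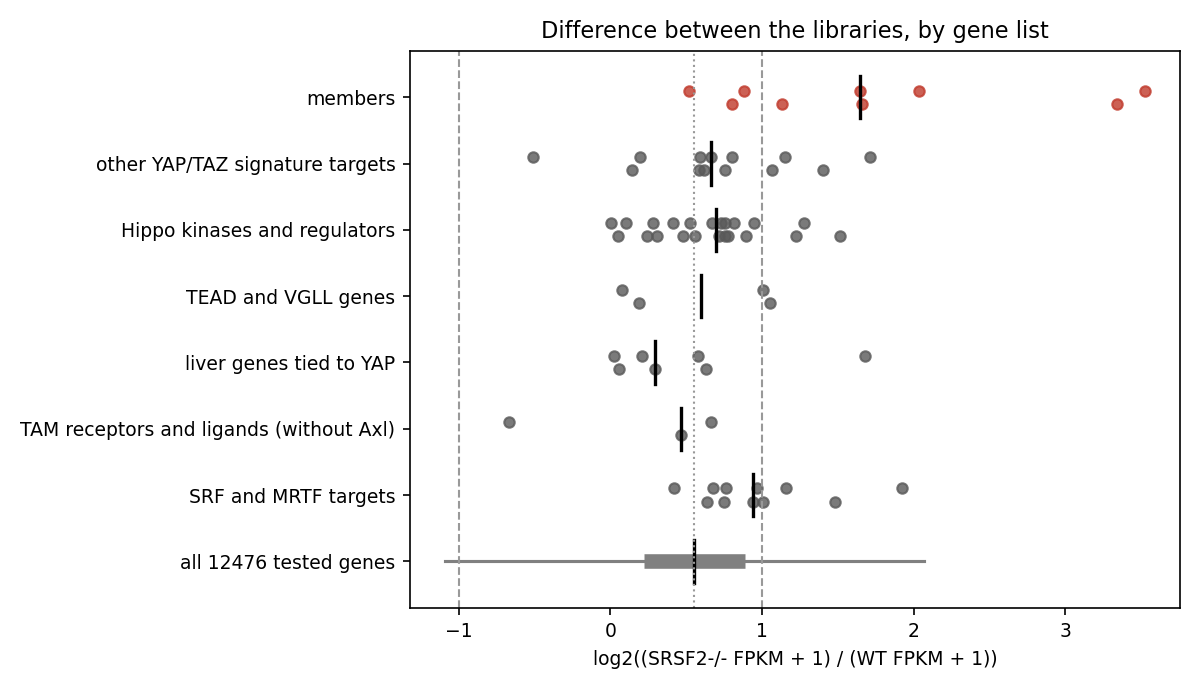
Log2 ratio (horizontal, SRSF2-/- over WT with a pseudocount of 1) of each tested gene of 7 lists, with a black tick at each list's median. The grey bar at the bottom spans the middle 50% of all 12476 tested genes and the thin line the middle 95%; the dotted line is their median of 0.55 and the dashed lines mark 2-fold, and 6 of 9 members lie to the right of the upper one.

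These genes are not made by 1 cell type. In adult liver, Axl is known from macrophages and stellate cells, Ccn2 from stellate cells and, after injury, hepatocytes, and Yap1 and Wwtr1 from bile duct and mesenchymal cells more than from hepatocytes. In whole liver, fewer cells of a type and less RNA per cell cannot be told apart. The 10 hepatocyte markers identified the tissue and summed to 59313 FPKM in the SRSF2-/- library and 126193 FPKM in the WT library, with 5 of 10 past 2-fold on the lower side and 1 on the higher side, against 2.95% and 19.2% of all genes. After centring 8 were lower and 1 higher, against 6.66% and 5.67%. Stellate cell and fibroblast markers summed to 492 FPKM in the SRSF2-/- library and 182 FPKM in the WT library. Of these 10, 6 were at least 2-fold higher and 0 lower, against 19.2% and 2.95% of all genes. After centring 2 were higher, against 5.67%. For bile duct epithelium the sums were 125 FPKM and 49.3 FPKM in that order. Of 9 tested markers, 5 were at least 2-fold higher, against 19.2% of all genes, and 3 after centring, against 5.67%. The 4 that passed the filter through the SRSF2-/- library alone, Krt7, Epcam, Cldn4 and Cldn7, were all among these 5. Their calls therefore follow in part from the filter, and of the 5 only Krt19 passed in both libraries. Macrophage markers, 8 of 10 matched, summed to 505 FPKM in the SRSF2-/- library and 215 FPKM in the WT library. Of these 8, 3 were at least 2-fold higher, against 19.2% of all genes, and 1 after centring, against 5.67%. Endothelial markers summed to 197 FPKM in the SRSF2-/- library and 158 FPKM in the WT library. Of these 10, 0 were at least 2-fold higher or lower, against 19.2% and 2.95% of all genes.

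Mesothelium markers, 7 of 8 matched, summed to 364 FPKM in the SRSF2-/- library and 80.7 FPKM in the WT library. Most of this was Krt8, a keratin that hepatocytes also make, and without it the sums were 12.5 FPKM and 3.84 FPKM in that order. With Krt8 counted, 3 of 5 tested were at least 2-fold higher, against 19.2% of all genes. After centring 1 was, against 5.67%, and this was Krt8. Of the 5 tested, 2 passed the filter through the SRSF2-/- library alone. Smooth muscle markers summed to 47.4 FPKM in the SRSF2-/- library and 21.7 FPKM in the WT library. Of 6 tested, 2 were at least 2-fold higher, against 19.2% of all genes, and 0 after centring, against 5.67%. The filter was passed through the SRSF2-/- library alone by 2 of the 6. The exocrine pancreas list summed to 780 FPKM in the SRSF2-/- library and 9.20 FPKM in the WT library, with Cpb1, Pnlip and Cel at 0 reads in the WT library, and 7 of the 9 tested passed the filter through the SRSF2-/- library alone. No matched marker of the hepatocyte, bile duct, stellate, endothelial, macrophage, mesothelium or smooth muscle lists was at 0 reads in either library. Single markers of a list differed in fold, so Ccn1, Ccn2 and Axl were set against each of them, a step added after the values were seen. The 10 stellate cell and fibroblast markers were 1.17-fold (Lrat) to 5.28-fold (Lum) higher in the SRSF2-/- library. The fold of Ccn1 was 2.54 times that of Lum and 11.5 times that of Lrat, and the fold of Ccn2 was 1.09 times and 4.91 times theirs. Set against the same 10 markers, the fold of Axl ran from 0.647 times that of Lum to 2.92 times that of Lrat, and 7 of the 10 had a smaller fold than Axl. The 8 matched macrophage markers were 1.63-fold (Clec4f) to 11.1-fold (Cd14) higher. The fold of Axl was 2.09 times that of Clec4f and 0.307 times that of Cd14, and 7 of the 8 had a smaller fold than Axl. The part of each cell type in the members' values was not tested.

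**Figure D4:**
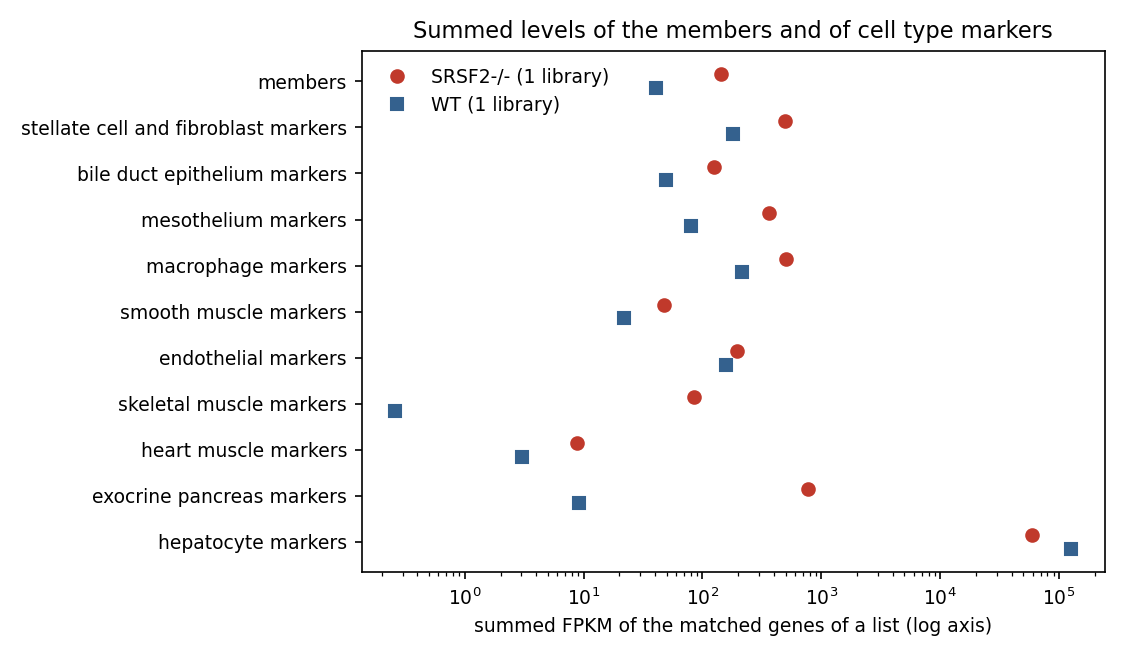
Summed FPKM (horizontal, log axis) of the matched members and of 10 cell type marker lists in the SRSF2-/- library (red circles) and the WT library (blue squares), with no replicate. The members sum to 144 FPKM in the SRSF2-/- library and 40.6 FPKM in the WT library, hepatocyte markers lie the other way round, and skeletal muscle and exocrine pancreas markers show the widest gaps.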

How the data were processed

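Liver RNA of 1 SRSF2-/- and 1 WT mouse sample, grouped by the genotype label, was analysed. Per the labels' protocols, Trizol RNA of frozen livers went into standard Illumina libraries. The submitters' processing notes name Bowtie 0.12.2 and build mm9. How reads were counted, with which annotation and strand setting, and how shared reads were treated is not stated in the sources used here.

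Per the file headers, the deposited tables hold a whole-number read count and an FPKM per RefSeq accession, the FPKM being the authors' normalization for length and depth. The counts sum to 22111605 reads (SRSF2-/-) and 22407743 (WT). Of 26449 accessions, 23419 were named through a RefSeq table of GRCm38.p6 and GENCODE, used for names only, and 13 that stand on 2 lines were summed. Reads and FPKM were summed per gene. The FPKM worth of 1 read, SRSF2-/- over WT, was 1.012 and scaled the intervals. Members, the 8 pathway and 10 marker lists and the alternatives were chosen with earlier results of these data known. Named genes are the members, Srsf2, sex-linked controls and, per pathway list, the 3 largest absolute log2 ratios and the most abundant gene. Others, and further relatives of members, were named after their values were seen. Promoter coordinates are GRCm38.p6 and were not converted to mm9. The computation was tested on simulated counts. Python 3.11.15 ran scipy 1.17.1, pandas 2.3.3, numpy 2.4.6 and matplotlib 3.10.9.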

Additional observations from a re-analysis of the deposited data

How the results depend on the processing

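No paired analysis was possible because each genotype has 1 library, which also left no library to leave out. The count of 6 members at least 2-fold higher, against 19.2% of all genes, became 7 with a pseudocount of 0.1 (Lats2 added; 30.4% of all genes). It was 5, with Amotl2 lost in each case, with a pseudocount of 5 (6.3%), after centring (5.67%) or after rescaling without the 20 most abundant genes (10.5%). It was 8 under a size rule of 1.5-fold (47.4%) and 3 under 4-fold (2.76%), which left Ankrd1, Ccn1 and Ccn2. It stayed at 6 without a filter (12.2%), with a filter of 5 FPKM (22.6%), as TPM (25.3%) and with the highest accession per gene (19.2%). It was also 6 under a rule chosen after seeing the data, that the whole interval of the plain ratio pass 2-fold (20.9%). That rule uses no pseudocount, so it is another measure and not a stricter form of the same call. No member was at least 2-fold lower under any of these, and Yap1 alone changed sign, to -0.03 after centring. The log2 ratio of Ankrd1 ranged from 1.76 to 5.54 with the pseudocount, since 8 WT reads limit it.

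Over all genes, the 2396 higher and 368 lower calls became 3796 and 463 with a pseudocount of 0.1, and 786 and 232 with 5. They became 1709 and 317 at 5 FPKM, 3629 and 474 as TPM, and 708 and 831 after centring. Without the 20 most abundant genes they were 1297 and 565, with the highest accession 2395 and 368, and with the whole interval of the plain ratio past 2-fold 2611 and 351. They were 5913 and 687 at 1.5-fold, and 344 and 94 at 4-fold. The median of all genes, 0.55, became 0.68 and 0.30 with pseudocounts of 0.1 and 5, 0.32 without a filter, 0.60 at 5 FPKM, 0.63 as TPM, 0 after centring and 0.29 without the 20. For the lists below, the share of all genes higher under each setting is the one given above with the members. A filter of 5 FPKM also left fewer genes tested in the Hippo, TEAD, signature and SRF lists, so counts there have a smaller base. Higher calls among the Hippo regulators (3, of 22 tested) became 5 with a pseudocount of 0.1, 0 with 5, 2 at 5 FPKM, 4 as TPM, 0 after centring, 12 at 1.5-fold and 0 at 4-fold. Those of the TEAD list (2) became 0 with a pseudocount of 5, 1 at 5 FPKM, and 0 after centring, without the 20 genes or at 4-fold. For the target signature, 4 became 8 and 1 with pseudocounts of 0.1 and 5, 1 after centring, 2 without the 20, 9 at 1.5-fold and 0 at 4-fold. At 5 FPKM, where only Igfbp3, Gadd45a, Ccdc80 and Nt5e of this list were tested, 3 were higher. For SRF targets, 4 became 7 and 1 with those pseudocounts, 6 as TPM, 1 after centring, 2 without the 20, 10 at 1.5-fold and 0 at 4-fold. Of the liver genes tied to YAP, 1 became 2 as TPM or at 1.5-fold and 0 at 4-fold. The muscle ankyrin list went to 1 with a pseudocount of 0.1 or at 1.5-fold, and the TAM list to 1 at 1.5-fold, both with 0 otherwise.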

Other observations

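Liver genes tied to YAP through bile duct fate and regeneration, a list kept apart from the members, had a median log2 ratio of 0.30, below the 0.55 of all genes (-0.26 centred). Of 10 genes 7 were tested, with 1 at least 2-fold higher (14.3%, against 19.2% of all genes) and 0 lower. Cd44, a hyaluronan receptor of epithelial progenitors and leukocytes, had 11.9 FPKM in the SRSF2-/- library and 3.03 FPKM in the WT library, a log2 ratio of 1.68 (1.13 centred). Spp1, which encodes osteopontin, had 46.6 FPKM in the SRSF2-/- library and 29.7 FPKM in the WT library. Jag1, a Notch ligand, had 1.83 FPKM in the SRSF2-/- library and 0.892 FPKM in the WT library, and passed the filter through the SRSF2-/- library alone. Sox9, the transcription factor of bile duct cells, stood at 1.47 FPKM in the SRSF2-/- library and 1.14 FPKM in the WT library, and Birc5, which encodes survivin, at 1.80 FPKM and 1.75 FPKM in that order. Both were named after their values were seen.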
